A study of Mus musculus with 36 samples.

Results

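The cytosolic ribosomal protein genes are described here across the gastrocnemius muscles of 36 mice. Members were the protein-coding genes whose symbol starts with Rpl or Rps and a digit, together with Rplp0, Rplp1, Rplp2 and Rpsa. Symbols with "-ps", the kinase genes that start with Rps6k and Rps19bp1 were left out. Of 46893 features in the count table, 89 were members, 55 of the large subunit and 34 of the small subunit. No measured value was used to choose them.

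The mice were male C57BL/6 mice of wild-type genotype, 3 to 4 weeks old at the start, and were studied for 12 weeks, with 6 mice and 1 library per mouse in each of 6 groups. NFD-C mice were sedentary and ate a normal-fat diet (16% of energy as fat), and HFD-C mice were sedentary and ate a high-fat diet (45%). The other 4 groups ate the high-fat diet and had running wheels: a brake held HFD-25% mice to 2.1 km/day, HFD-50% mice to 4.2 km/day and HFD-75% mice to 6.3 km/day, while HFD-U mice ran without a limit (8.3 km/day). The study asked how running distance changes the muscle transcriptome of mice on a high-fat diet. The whole muscle was homogenized, so that fewer cells of a type and less RNA per cell cannot be told apart.

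The cytosolic ribosome is built from a small and a large subunit, each of ribosomal RNA and many proteins, and makes nearly all proteins of the cell. Transcripts of its protein genes usually start with a C and a run of pyrimidines, the terminal oligopyrimidine (TOP) motif, through which their translation follows mTORC1 and the RNA-binding protein Larp1. Some members have a paralog with restricted expression, and in adult striated muscle Rpl3l largely takes the place of Rpl3, a protein near the catalytic centre of the large subunit.

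Libraries held 13060090 to 27981702 counts. The skeletal muscle markers were abundant, with Acta1, the alpha-actin of skeletal muscle, at group means of 22610 to 28327 CPM (counts scaled by library size and TMM factors). None of the marker genes of muscle or of other cell types was at 0 in all libraries of a group. Libraries fell into a high and a low set in how many of their counts came from features related to ribosomal RNA (rRNA-linked share). The list for this share held 11 names, of which 7 were in the count table. It includes mt-Rnr1, mt-Rnr2 and Lars2, a protein-coding gene that the paper reports among its significant dose-response genes. The part of Lars2 in the share was not tested. In all 6 NFD-C mice and HFD-C mice 1 to 4 the share was 2.01 to 3.81%, and in HFD-C mice 5 and 6 and all 24 runners 0.404 to 1.02%. Comparisons of runners with HFD-C therefore set mostly libraries of 1 set against the other, and are also given within the set of low share, with HFD-C mice 5 and 6 alone.

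RefSeq sequences around annotated starts (GRCm38.p6, 250 bases before to 50 after the start) were at hand for 68 of the 89 members, 63 of them tested. They are shown because a run of pyrimidines at the start is the known feature of these genes, and the windows of members described below differ in it. The windows run from 15 bases before to 15 after the start, and capitals mark the longest run of C and T in them.
Rpl7a: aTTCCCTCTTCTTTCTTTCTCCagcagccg
Rpl38: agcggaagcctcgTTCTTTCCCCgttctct
Rpl41: cacacgggccggCTCggaagtgacgacacc
Rps28: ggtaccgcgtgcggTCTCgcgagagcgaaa
Rpl3l: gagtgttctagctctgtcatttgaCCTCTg
These windows lie at chr2:26910792-26910821 (plus strand), chr11:114668565-114668594 (plus), chr10:128549154-128549183 (minus), chr17:33824548-33824577 (minus) and chr17:24727811-24727840 (plus). Rpl7a and Rpl38 had runs of 21 and 10 pyrimidines, whereas the longest runs shown for Rpl41, Rps28 and Rpl3l were 3, 4 and 5 bases.

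A run of at least 8 pyrimidines within 20 bases of the start was found in 29 of 63 tested members (46.0%), beside 18.3% of 26957 other genes and 16.05% of all 32851 windows. A gene was counted when any of its windows held the letters. Sequences were also searched on both strands for the ETS motif CCGGAAGT, which was present in 12 members (19.05%) and in 4.27% of the other genes. The YY1 motif AAGATGGC was in 6 members (9.52%) and in 3.18% of other genes. The E-box CANNTG was in 33 members (52.4%) and 75.0% of other genes, and TATAAA in 7 members (11.1%) and 15.7% of other genes. The MEF2 motif, which is read by a family of muscle transcription factors, was in 0 of the 63 members and in 0.638% of other genes. The reverse strand of CCGGAAGT holds 5 pyrimidines in a row and can overlap a run. These shares describe letters in a window and were not tested.

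Of the 89 members, 84 had a mean count of at least 25 and were tested. The others were Rpl28, with a mean of 3.81 counts per library in a gene that overlaps LOC118567469, the copies Rpl32l and Rps23rg1, and the testis paralogs Rpl39l and Rpl10l, of which Rpl10l had 0 counts in every library. Per length of the gene model, Rplp1, a protein of the acidic stalk that recruits elongation factors, had the highest level, with a mean of 985 CPM per kb over all mice. It was followed by Rps14 with 616 CPM per kb and Rps26 with 549 CPM per kb, both of the small subunit. The lowest tested levels were 11.1 CPM per kb for Rpl37rt, 11.6 CPM per kb for Rpl7l1 and 20.9 CPM per kb for Rpl6l. Rpl3l was placed 32 with 264 CPM per kb, and Rpl3 was placed 78 with 29.3 CPM per kb.

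**Figure D1:**
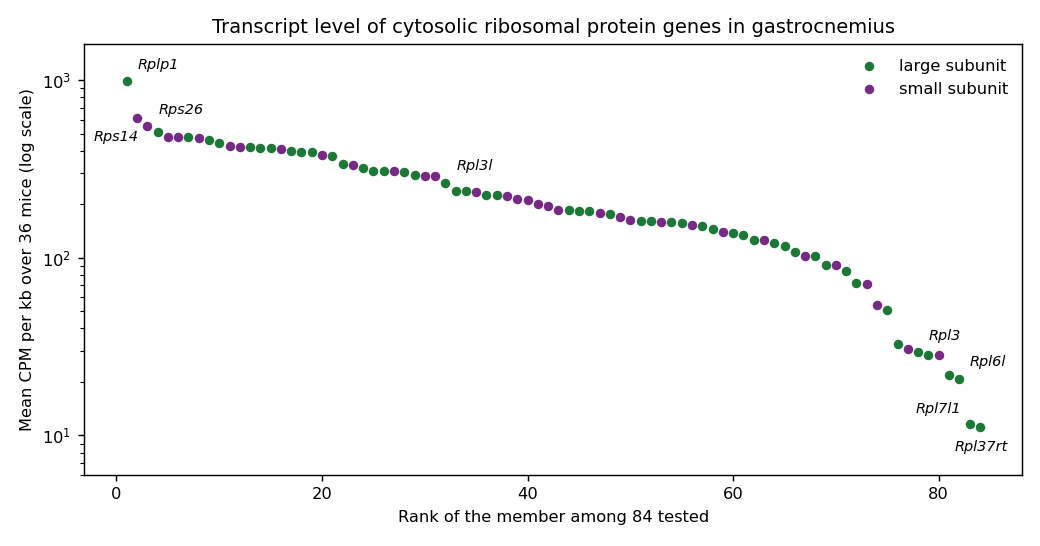
Mean level over 36 mice (y axis, CPM per kb, log scale) of the 84 tested members, ordered from highest to lowest (x axis, rank) and coloured by subunit. Levels run from 11.1 CPM per kb for Rpl37rt to 985 CPM per kb for Rplp1, and Rpl3 lies below its muscle paralog Rpl3l.

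Members varied widely among mice. The highest group mean of a member was a median of 1.25 times its lowest (range 1.05 to 3.17). The highest single mouse was a median of 2.89 times the lowest (range 1.34 to 25.0). Within groups the coefficient of variation had a median of 23.2% over the 84 members. The number of the 84 members that lay above their own mean over all mice ran from 2 in mouse 1 of 3 groups (HFD-U, HFD-75%, HFD-50%) to 82 in HFD-50% mice 4 and 6. Members held 1.20 to 3.10% of all counts.

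The summed level of the members was compared in each mouse. In NFD-C it was 16612 ± 2100 CPM (mean ± SD, n = 6), with a lowest, median and highest mouse of 13366, 16736 and 18948 CPM. In HFD-C it was 16928 ± 2873 CPM, with 12688, 17824 and 20198 CPM. In HFD-25% the mean was 16692 ± 1237 CPM, which is the narrowest spread. The ranges of these groups overlapped.

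In HFD-50% the summed level was 19482 ± 6115 CPM, with a lowest, median and highest mouse of 13771, 19166 and 30606.5 CPM. In HFD-75% it was 17060 ± 3009 CPM, and in HFD-U 16265 ± 2091 CPM. HFD-50% mouse 4 stood apart, since the other 35 mice lay between 12005 and 20755 CPM. In that mouse 75 of the 84 tested members were at their highest of all 36 mice, and the median member was 1.84 times the median of the other mice. It also had the highest summed levels of ribosome biogenesis genes (2336 CPM) and translation factors (14802 CPM), and the lowest of fibroblast markers (200.2 CPM) and satellite cell markers (14.5 CPM). Its rRNA-linked share of 1.02% was the highest among runners. The part of these values in its ribosomal protein level was not tested.

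The mouse numbered 1 had the lowest summed level of its group in all 6 groups, from 12005 to 14732.5 CPM. It was the lowest of its group for 72 of the 84 members in NFD-C and 75 in HFD-C, and among runners for 76 in HFD-75%, 63 in HFD-U, 52 in HFD-25% and 47 in HFD-50%. The labels do not say what the numbers stand for, and whether they mark a cage, day or batch was not tested. The low-share controls, HFD-C mice 5 and 6, also had the highest summed levels of HFD-C, so that the rRNA-linked share and the mouse number cannot be told apart in the comparisons within the low-share set. Counts of members in the comparisons are therefore also given for mice 2 to 6 where they move by over 1.5 times.

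**Figure D2:**
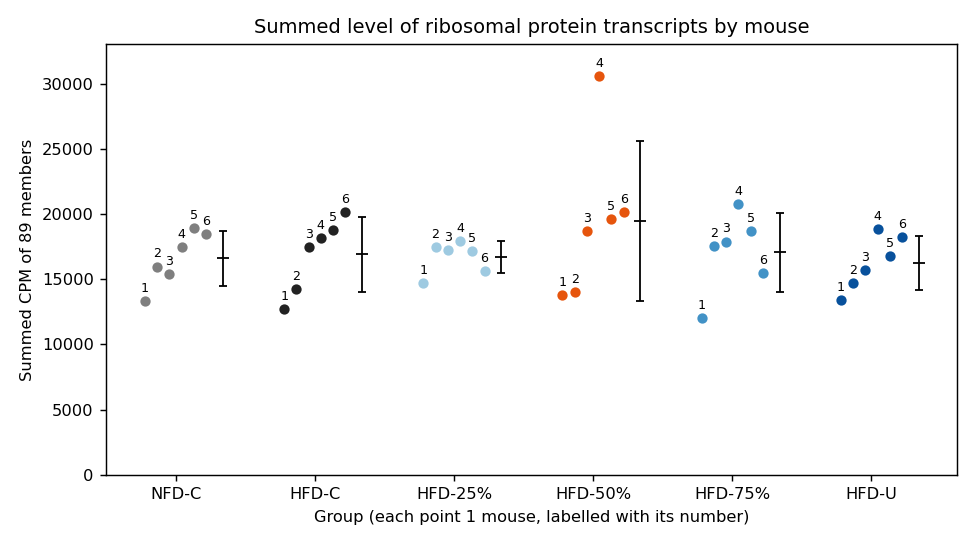
Summed CPM of the 89 members (y axis) in each mouse, by group (x axis), with the number of the mouse beside its point and the group mean with its SD as a bar. Mouse 1 is the lowest of every group, and HFD-50% mouse 4 lies at 30606.5 CPM above all others.

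Rpl3l, the striated muscle paralog of Rpl3 (GRCm39, chr17:24946800-24955117, plus strand), had group means within 1.05 times of each other and a coefficient of variation within groups of 11.6%. Its lowest, median and highest levels were 434, 472 and 547 CPM in NFD-C, and 391, 444 and 586 CPM in HFD-C. They were 419, 477 and 550.1 CPM in HFD-25%, and 382, 493 and 556 CPM in HFD-50%. In HFD-75% they were 480, 496 and 521 CPM, and in HFD-U 429, 492 and 545 CPM. All groups overlapped.

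Group means of Rpl3l ran from 475 CPM in HFD-C through 480, 481, 483 and 487 CPM in NFD-C, HFD-50%, HFD-25% and HFD-U to 499 CPM in HFD-75%, and no neighbours in this order differed beyond their spread. Log2 fold changes against HFD-C were 0.02 (95% interval -0.24 to 0.29) for NFD-C, 0.03 (-0.26 to 0.32) for HFD-25%, 0.02 (-0.30 to 0.34) for HFD-50%, 0.08 (-0.18 to 0.33) for HFD-75% and 0.04 (-0.23 to 0.31) for HFD-U. The test of any difference among the 6 groups gave an unadjusted p of 0.991 (edgeR). These values mix the library sets. The low-share controls, HFD-C mice 5 and 6, had the highest Rpl3l of all 36 mice (565 and 586 CPM), beside 391 to 459 CPM in HFD-C mice 1 to 4. Over the alternatives the fold changes against HFD-C fell as low as -0.26 for HFD-25%, -0.25 for HFD-50% and HFD-U, and -0.20 for HFD-75%. In HFD-50% mouse 4, where most members were at their highest, Rpl3l was at 382 CPM, the lowest of all 36 mice.

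Rpl3 (chr15:79961982-79967607, minus strand, with 3 small nucleolar RNA genes inside it) varied more. It had a lowest, median and highest level of 30.4, 36.1 and 45.5 CPM in NFD-C, and of 32.6, 40.0 and 60.9 CPM in HFD-C. Its levels were 38.7, 51.8 and 55.6 CPM in HFD-25%, 41.4, 55.2 and 84.2 CPM in HFD-50%, 33.6, 44.99 and 56.8 CPM in HFD-75%, and 33.6, 38.8 and 54.6 CPM in HFD-U. Sedentary mice on the normal-fat diet had the lowest mean and HFD-50% the highest, and all groups overlapped.

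Rpl3 was higher in HFD-50% than in HFD-C by 0.45 ± 0.19 (log2, SE), with an unadjusted p of 0.0322 and an adjusted p of 0.419 (edgeR). Without HFD-50% mouse 4 the difference was 0.31 with an unadjusted p of 0.092. Against HFD-U it was higher by 0.51 ± 0.18, with an unadjusted p of 0.0129 and an adjusted p of 0.294, and 0.37 with an unadjusted p of 0.0329 without that mouse. Among the 24 runners Rpl3 fell with distance by 0.48 ± 0.23 on the log2 scale per 100% of the unrestricted distance, with an unadjusted p of 0.0477 and an adjusted p of 0.692.

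The ratio of Rpl3l to Rpl3 per kb, in which library scaling cancels, was 11.3 ± 1.56 in NFD-C and 9.82 ± 3.10 in HFD-C (mean ± SD, n = 6). Among runners it was 10.3 ± 1.65 in HFD-U, 9.68 ± 2.21 in HFD-75%, 8.53 ± 2.25 in HFD-25% and 7.46 ± 2.12 in HFD-50%. Over all mice it ran from 3.81 in HFD-50% mouse 4 to 15.05 in HFD-C mouse 6. On the log2 scale HFD-50% lay 0.51 below HFD-U (-0.51 ± 0.22, SE), with a two-sided exact permutation p of 0.0325, or 0.195 after adjustment over 6 comparisons. Without HFD-50% mouse 4 the log2 difference was -0.32 with an exact permutation p of 0.0584. In the comparisons with HFD-C the exact permutation p was 0.444 for HFD-25%, 0.175 for HFD-50%, 0.991 for HFD-75%, 0.626 for HFD-U and 0.242 for NFD-C, where the smallest p possible is 0.00216. The difference for NFD-C was 0.25 ± 0.20 on the log2 scale, and 0.49 within the high-share set (exact permutation p = 0.0143). Without HFD-C mouse 6 it was 0.38 (exact permutation p = 0.039).

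**Figure D3:**
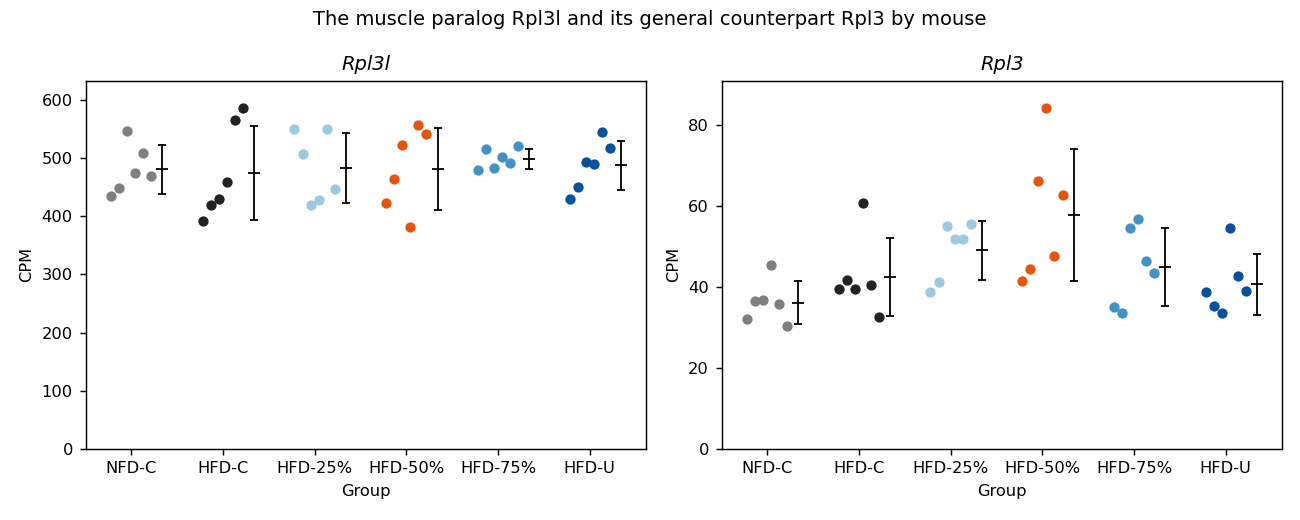
CPM (y axis) of Rpl3l (left) and Rpl3 (right) in each mouse by group (x axis), with the group mean and its SD as bars. Rpl3l lies between 382 and 586 CPM in all 36 mice, and Rpl3 between 30.4 and 84.2 CPM with HFD-50% mouse 4 at the top.

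The other paralogs were compared with their counterparts in the same way. Rpl7l1 was at 0.0262 to 0.0324 of Rpl7 per kb in group means, and the ranges of all groups overlapped. Rpl22l1 was at 1.31 to 1.49 of Rpl22 per kb, and Rpl36al at 1.14 to 1.38 of Rpl36a. Rps27l, a paralog known as a target of p53, was at 0.135 to 0.345 of Rps27, with the widest spread in HFD-75% (0.0935 to 0.863), where Rps27 itself ran from 12.6 to 227 CPM. Rpl39 had group means of 63.8 to 78.7 CPM and Rps4x, encoded on the X chromosome, of 250.5 to 297 CPM. The ratios of these pairs were not tested.

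The stalk genes and Rpsa had an unadjusted p above 0.05 in each of the 8 tests with all mice (edgeR). Rplp0, the anchor of the stalk, had group means of 667 to 751 CPM, Rplp1 of 415 to 517 CPM and Rplp2 of 123 to 165 CPM. Rpsa, a small subunit protein also known as the laminin receptor, had group means of 518 to 610 CPM. Each of the stalk genes had its highest mean in HFD-50%, but without HFD-50% mouse 4 the highest means were in HFD-75% for Rplp0 (730) and Rplp1 (482), and in HFD-C for Rplp2 (146).

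Diet was compared in sedentary mice. In NFD-C against HFD-C, 4 of 84 members (4.76%) reached an unadjusted p of 0.05 or less (edgeR), 3 higher and 1 lower, beside 4.12% of all 12247 genes tested (1.98% higher, 2.14% lower). None passed the adjusted p, by edgeR or by DESeq2, which also gave 4 members at an unadjusted p of 0.05 or less. Rpl41, the smallest ribosomal protein, had a lowest, median and highest level of 75.0, 111 and 154 CPM in NFD-C and 122, 211 and 275 CPM in HFD-C. Only HFD-C mouse 6 lay within the NFD-C range. Its log2 fold change was -0.88 ± 0.22 (SE), with an unadjusted p of 0.00124 and an adjusted p of 0.945, and -0.92 within the high-share set.

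Rpl30, a protein of the large subunit, was higher by 0.41 ± 0.17 (log2, SE) in NFD-C, with 87.8 to 179 CPM against 82.6 to 133 CPM. Rpl7l1 was higher by 0.21 ± 0.09, with 30.4 to 33.8 CPM against 25.1 to 32.5 CPM. Rps27rt, a near copy of Rps27, was higher by 0.85 ± 0.34 and is described with Rps27. The members' median log2 fold change was -0.02, beside 0.00 over all genes, and 35 of 84 were positive. It was 0.04 with 56 positive without HFD-C mouse 6, and -0.09 with 13 positive without HFD-C mouse 1. Within the high-share set, with HFD-C mice 1 to 4, the median was 0.10 with 72 positive. There Rpl41, Rpl7l1 and Rpl3 reached an unadjusted p of 0.05 or less, beside 4.96% of all genes. Rpl30 and Rps27rt did not, with 0.33 and 0.57 on the log2 scale. The count was 1 without HFD-C mouse 5 (5.60% of all genes), and 2 without HFD-C mouse 2 (4.25%) or NFD-C mouse 3 (3.77%).

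Runners were compared with HFD-C in 4 comparisons that share the same 6 control mice. In HFD-25% 1 of 84 members (1.19%) reached an unadjusted p of 0.05 or less, beside 6.98% of all 12202 genes (3.4% higher, 3.58% lower). This was Rpl37rt, a copy named after Rpl37, at 5.31 to 8.73 CPM against 6.89 to 15.02 CPM in HFD-C, with a log2 fold change of -0.44 ± 0.20, and -0.05 in the low-share set. None passed the adjusted p, beside 0.0082% of all genes. The median of members was -0.02, and 30 of 84 were positive. It turned to 0.05 with 61 positive without HFD-C mouse 6, and was -0.09 with 13 positive without HFD-C mouse 1. In the low-share set the count was 16, of which 15 were lower, beside 11.6% of all genes in that fit, and the median was -0.21. In mice 2 to 6 the count was 4, beside 7.58% of all genes. It was 8 without HFD-C mouse 1 (6.75% of all genes) and 2 without HFD-C mouse 2 (6.07%). It was 0 without HFD-C mouse 3 (6.196%) or HFD-25% mouse 1 (8.85%). Where the count stayed at 1, the member was Rpl37rt without HFD-25% mouse 2 or 6 or HFD-C mouse 5 or 6. It was Rps12 without HFD-25% mouse 3, and Rps21 without HFD-25% mouse 4 or 5, both lower. Without HFD-C mouse 4 it was Rpl3, which was higher. With the mouse number as a block the members were Rpl41, Rps12 and Rps21, all lower, beside 8.28% of all genes.

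In HFD-50% Rpl3 (above) was the 1 member with an unadjusted p of 0.05 or less (1.19%), beside 10.7% of all 12116 genes (5.8% higher, 4.89% lower). The median of members was 0.21 on the log2 scale, beside 0.01 over all genes, and 81 of 84 members were positive. Without HFD-50% mouse 4 the median was 0.03 with 52 positive, and no member reached an unadjusted p of 0.05 or less, beside 9.84% of all genes. In the low-share set the median was 0.01 with 47 positive. The count was also 0 without mouse 6 or any of HFD-C mice 1, 2, 3 and 5, beside 8.46 to 10.5% of all genes. It was 2 without mouse 1 (13.5% of all genes) and in mice 2 to 6 (11.02%). It was 3 without mouse 2 (10.7%), mouse 5 (8.92%) or HFD-C mouse 6 (10.4%). Rpl21 had a log2 fold change of 0.82 (95% interval -0.02 to 1.65) and Rpl30 of 0.65 (-0.24 to 1.54), both with their highest level in mouse 4.

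In HFD-75% 2 of 84 members (2.38%) reached an unadjusted p of 0.05 or less, beside 5.47% of all 12113 genes (2.31% higher, 3.16% lower). Rpl6l, a copy named after Rpl6, was at 12.3 to 18.8 CPM against 17.0 to 26.2 CPM, with a log2 fold change of -0.32 ± 0.14. Rps12, of the small subunit, was at 48.1 to 84.1 CPM against 74.7 to 128 CPM, with -0.37 ± 0.16. The groups overlapped for both genes. The median of members was 0.02 with 51 positive, but -0.06 with 22 positive without HFD-75% mouse 4 and -0.06 with 18 positive without HFD-C mouse 1. In the low-share set it was -0.20 with 10 positive. There Rpl6l, Rplp2 and Rps9 were lower at an unadjusted p of 0.05 or less, beside 8.99% of all genes. The count was 1 without HFD-75% mouse 1 (6.06% of all genes), mouse 2 (4.80%) or mouse 6 (4.23%). Without mouse 1 the member was Rpl15, which was higher, and the median of members was 0.10 with 68 positive. Without mouse 2 it was Rps12, and without mouse 6 it was Rpl6l, both lower. The count was 0 without HFD-C mouse 3 (4.39%) or mouse 4 (5.91%).

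In HFD-U 9 of 84 members (10.7%) reached an unadjusted p of 0.05 or less, beside 5.46% of all 12023 genes. All 9 were lower, beside 3.31% of all genes lower and 2.15% higher. They were Rpl21, Rpl37, Rpl38, Rpl37rt and Rpl6l of the large subunit and Rps12, Rps21, Rps28 and Rps29 of the small subunit. None passed the adjusted p, of which the smallest was 0.436 by edgeR and 0.0967 by DESeq2.

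Rpl21, a protein of the large subunit whose gene holds 2 small nucleolar RNA genes, had a lowest, median and highest level of 29.98, 35.5 and 43.5 CPM in HFD-U and 39.3, 54.4 and 67.9 CPM in HFD-C. The groups overlapped in HFD-C mice 1 and 2 and HFD-U mouse 4. The log2 fold change was -0.60 ± 0.16 (SE), with an unadjusted p of 0.00154. Rps28 had 38.8, 43.1 and 60.0 CPM in HFD-U and 48.4, 69.5 and 73.0 CPM in HFD-C, with -0.49 ± 0.14. Rps29 had 67.0, 82.1 and 125 CPM and 92.0, 129 and 150 CPM, with -0.50 ± 0.16. HFD-U mouse 4 was the highest of its group in each of these genes, and the groups overlapped in each.

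The other members that were lower in HFD-U had log2 fold changes from -0.37 for Rps21 to -0.70 for Rpl37rt. The 9 included Rps28, whose window above has no long pyrimidine run, and Rpl38, whose window has one. The median of all members was -0.05 with 19 of 84 positive, 0.00 with 45 positive without HFD-C mouse 6, and -0.13 with 5 positive without HFD-C mouse 1. Without HFD-U mouse 1 there were 40 positive. In the low-share set the count was 19, all lower, beside 11.8% of all genes, with a median of -0.25. With the rRNA-linked share fitted as covariate it was 20, beside 12.4% of all genes. With the mouse number as a block it was 12, all lower, beside 10.2% of all genes, and the smallest adjusted p was 0.114 (edgeR). In the low-share set Rpl37rt and Rps12 did not reach an unadjusted p of 0.05, with -0.32 and -0.24 on the log2 scale. With all mice, 3 of 4 tested adipocyte markers were also lower at an unadjusted p of 0.05 or less, and all 4 had fold changes below 0. Their sum was 1.57 to 14.95 CPM in HFD-U and 2.74 to 89.9 CPM in HFD-C. Of rRNA-linked features 5 of 7 were lower at that limit and all 7 below 0, with 4587 to 6294 CPM and 5741 to 35191 CPM. In this comparison no gene of either list passed the adjusted p. Over the 6 groups at once, 5 of 7 rRNA-linked features passed it (edgeR), beside 1.45% of all genes. The part of both lists in the lower levels was not tested.

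**Figure D4:**
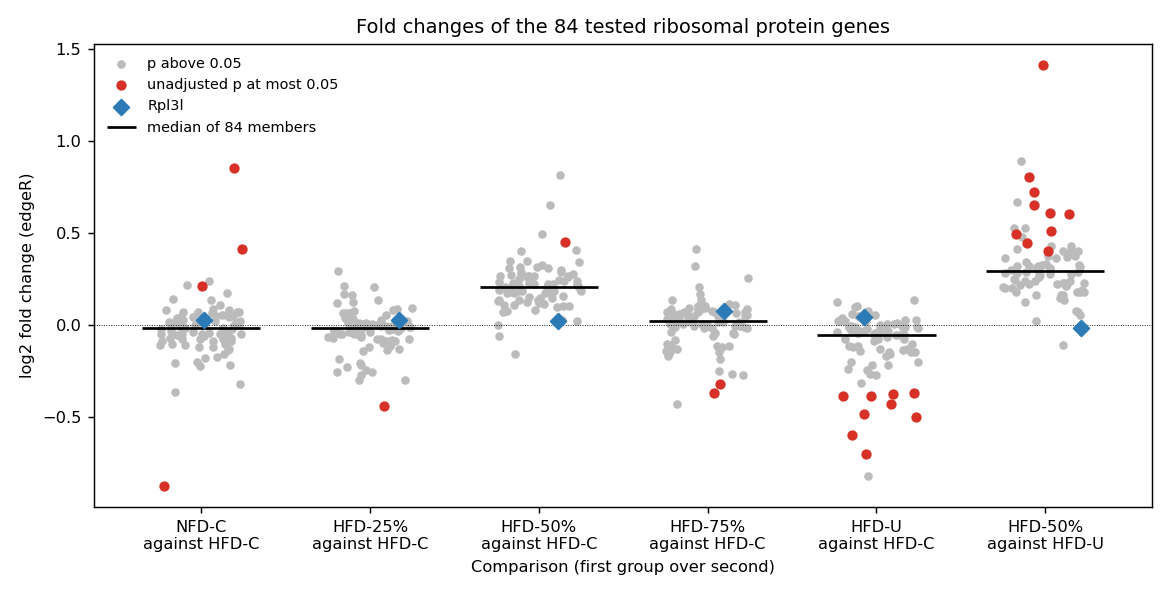
Log2 fold changes (y axis) of the 84 tested members in 6 comparisons (x axis), with members at an unadjusted p of 0.05 or less in red, Rpl3l as a blue diamond and the median of members as a bar. Members lie mostly above 0 in both comparisons of HFD-50%, with medians of 0.21 and 0.29. Rpl3l stays near 0 in these fits of all mice, which mix the library sets in HFD-C.

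Moderate and unrestricted running were compared directly. In HFD-50% against HFD-U 10 of 84 members (11.9%) reached an unadjusted p of 0.05 or less, beside 12.4% of all 11851 genes, so that the share was near the background. All 10 were higher, beside 7.08% of all genes higher and 5.34% lower. They were Rpl3, Rpl6l, Rpl17, Rpl21, Rpl37, Rpl37rt and Rpl38 of the large subunit and Rps27a, Rps28 and Rps29 of the small subunit. None passed the adjusted p, beside 0.00844% of all genes, by edgeR (smallest 0.242) or DESeq2 (0.0874, with 12 members at an unadjusted p of 0.05 or less).

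Rpl21 had 31.5, 66.6 and 247 CPM as lowest, median and highest level in HFD-50%, against 29.98, 35.5 and 43.5 CPM in HFD-U. Its log2 fold change was 1.41 ± 0.39 (SE), and 0.84 without HFD-50% mouse 4. Rps27a, which is made as a fusion with ubiquitin, had 50.8, 83.4 and 160.2 CPM against 42.6, 55.6 and 67.1 CPM, with 0.72 ± 0.25. Rpl37rt had 5.29, 10.6 and 14.1 CPM against 4.04, 5.59 and 8.29 CPM, with 0.80 ± 0.24. HFD-50% spread more widely than HFD-U in each, and the groups overlapped.

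The median of members was 0.29 on the log2 scale, beside 0.02 over all genes, with 82 of 84 positive. Without HFD-50% mouse 4 it was 0.08 with 68 positive, and 5 members reached an unadjusted p of 0.05 or less, namely Rpl3, Rpl21, Rpl37rt, Rps27a and Rps29, beside 11.3% of all genes. The count was 26 without HFD-50% mouse 1, beside 17.4% of all genes in that fit, and 26 without mouse 2, beside 13.8%. It was 5 without mouse 6 (9.72% of all genes), 16 without HFD-U mouse 4 (15.7%) and 6 without HFD-U mouse 1 (9.24%). In mice 2 to 6 it was 16 (12.5% of all genes), and with the mouse number as a block 30 (17.9%). With the rRNA-linked share fitted as covariate the direction turned, with a median of -0.15 and 2 members lower, Rps25 and Rps27l, beside 4.58% of all genes. Slow fibre genes moved with the comparison. With all mice 7 of 10 were higher in HFD-50% at an unadjusted p of 0.05 or less, and none passed the adjusted p. All 10 had fold changes above 0, with a median of 1.58 (log2). Summed levels were 799 to 4733 CPM against 193 to 2213 CPM. In mouse 4, with the highest ribosomal protein level, that sum was 1433 CPM. Their part in the members' levels was not tested.

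**Figure D5:**
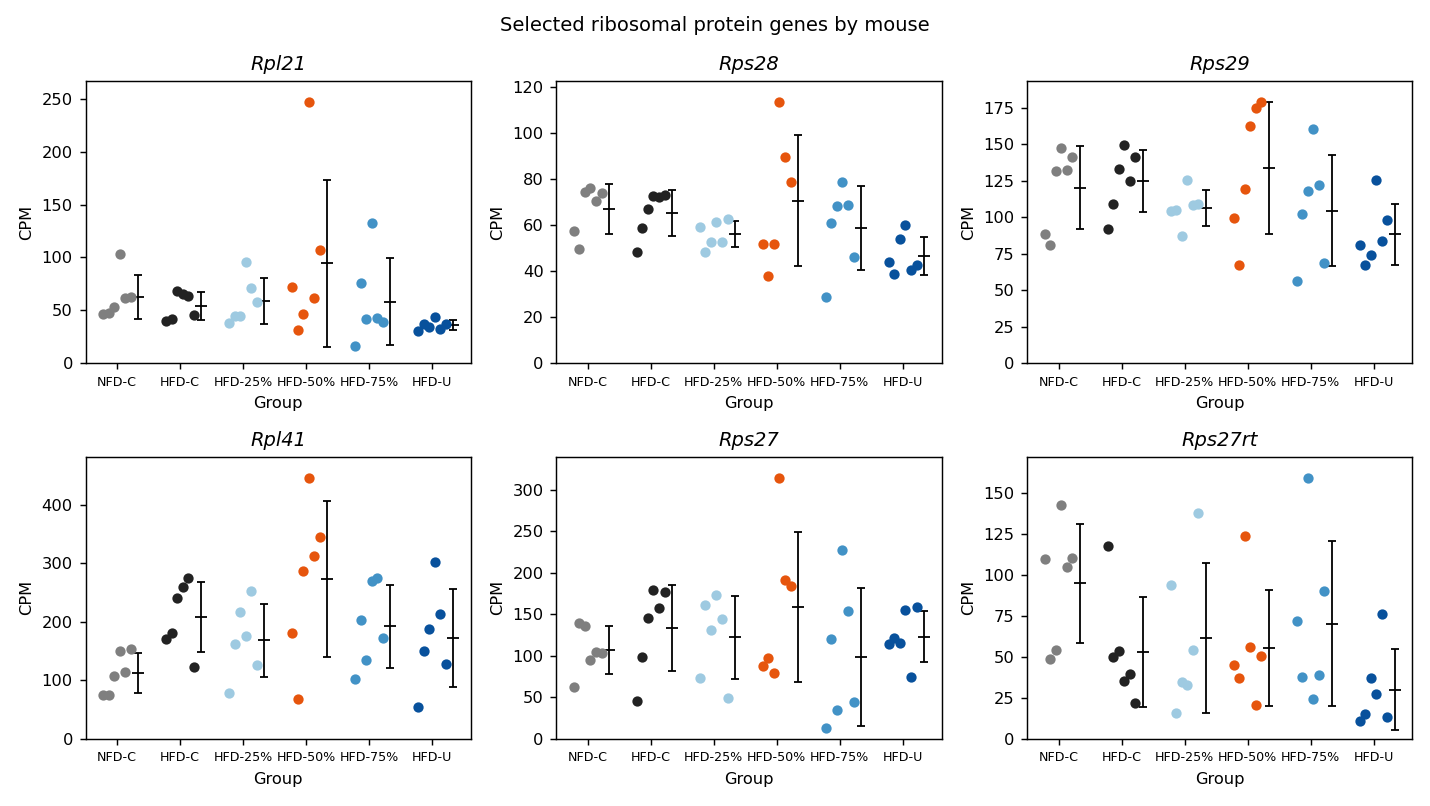
CPM (y axis) in each mouse by group (x axis), with the group mean and its SD as bars, for Rpl21, Rps28 and Rps29, lower in HFD-U, Rpl41, lower in NFD-C (all at unadjusted p), and Rps27 with its near copy Rps27rt. HFD-U mice lie at 29.98 to 43.5 CPM for Rpl21, and HFD-50% mouse 4 lies at 247 CPM.

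Over all 6 groups at once, 8 of 84 members (9.52%) reached an unadjusted p of 0.05 or less, beside 12.2% of all 12053 genes, and the count was 4 without HFD-50% mouse 4. The 8 were Rpl3, Rpl6l, Rpl7a, Rpl21, Rpl37rt, Rpl41, Rps2 and Rps12. None passed the adjusted p by edgeR, beside 1.45% of all genes, the smallest being 0.0954 for Rpl37rt. DESeq2 put 2 of 84 members, Rpl3 and Rpl37rt, past it, beside 445 of all 12053 genes. With the mouse number as a block, edgeR put 4 members past it, Rpl3, Rpl37rt, Rpl41 and Rpl6l, beside 527 of all 12053 genes. In that fit 17 members reached an unadjusted p of 0.05 or less, beside 20.3% of all genes. With distance among runners, Rpl3 was the 1 member (1.19%) at an unadjusted p of 0.05 or less, beside 7.13% of all 11935 genes (2.28% higher, 4.85% lower). The median slope of members was -0.14 (log2 per 100% of the unrestricted distance) with 3 of 84 positive, and -0.04 with 23 positive without HFD-50% mouse 4. HFD-50% had the highest group mean for 74 of the 84 members, and the lowest was most often in HFD-U (35) and NFD-C (26). Without HFD-50% mouse 4 the highest mean was in HFD-50% for 29 members, in NFD-C for 22 and in HFD-75% for 18, and the lowest was in HFD-U for 34 and in NFD-C for 26.

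In none of the 6 comparisons of 2 groups did the groups of 6 mice separate completely for a member. The share of all 12053 genes that did so was 0.0996 to 0.506% for higher and 0.133 to 0.415% for lower genes.

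The separate values of Rps27 and its near copy Rps27rt are uncertain. Rps27 (GRCm39, chr3:90119974-90120955, minus strand) is a small subunit gene, and Rps27rt (chr9:114811434-114811807, minus strand) overlaps Osbpl10. Their RefSeq starts are shown because they share a run of 38 identical bases. The windows lie at chr3:90213634-90213663 and chr9:114982725-114982754 (GRCm38.p6, both minus strand), and capitals mark here the part of that shared run within the window.
Rps27: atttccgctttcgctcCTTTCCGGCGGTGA
Rps27rt: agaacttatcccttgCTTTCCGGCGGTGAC
The shared run starts with the first transcribed base of Rps27rt and the second of Rps27, so both transcripts begin almost alike.

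The levels of these copies differed from mouse to mouse. In HFD-75% mouse 1 had 12.6 CPM of Rps27 and 71.7 CPM of Rps27rt, whereas mouse 4 had 227 and 23.99 CPM. Rps27rt took 7.76 to 85.1% of the sum of both over all mice, and exceeded Rps27 in 11 of 36 mice, 3 each in NFD-C and HFD-75%, 2 in HFD-25% and 1 in each other group. The sum of both ran from 84.3 to 370.2 CPM. How reads that match both copies were counted is not stated, so that the higher Rps27rt in NFD-C (48.4 to 142 CPM against 21.7 to 118 CPM in HFD-C) cannot be told apart from a shift between copies. Rpl37rt and Rpl37 were both lower in HFD-U than in HFD-C and both higher in HFD-50% than in HFD-U. Reads shared between Rpl37rt and Rpl37 or Rpl6l and Rpl6 were not examined, and 225 features in the table carry pseudogene names made from members.

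Other genes of the translation machinery were counted in the same fits, against the shares of all genes given above. Of 59 ribosome biogenesis genes, 4 reached an unadjusted p of 0.05 or less in HFD-50% (3 higher) and 2 in HFD-75% (both higher) against HFD-C, 1 in NFD-C (higher), and none in HFD-25% or HFD-U. In HFD-50% against HFD-U there were 6 (5 higher). Rrs1, which acts in large subunit assembly, was the 1 gene of that list past the adjusted p over the 6 groups (adjusted p = 0.04995, edgeR), with group means of 15.5 ± 2.98 CPM in HFD-C and 23.2 ± 3.84 CPM in HFD-50%. Nop10, a protein of the H/ACA ribonucleoproteins, had group means of 43.4 to 53.1 CPM, Rrp1 of 62.0 to 73.5 CPM and Npm1, nucleophosmin, of 99.5 to 116 CPM.

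Of 42 translation factors, 1 reached an unadjusted p of 0.05 or less in HFD-50% (higher), and none in the other comparisons with HFD-C. Tpt1, which has a TOP motif of its own, had group means of 1648 to 1901 CPM. Eef2, the factor that moves the ribosome along the messenger, had 1193 to 1329 CPM, and Eif1, of start codon selection, had 497 to 661 CPM.

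Of 40 genes of mTORC1 and TOP mRNA control, 4 reached an unadjusted p of 0.05 or less in HFD-25% (1 higher) and 5 in HFD-50% (2 higher). There were 3 in HFD-U (1 higher), 1 in HFD-75% (higher) and none in NFD-C. Sesn1, a sestrin that restrains mTORC1, was past the adjusted p over the 6 groups (adjusted p = 0.00578, edgeR). It had 22.1 ± 3.78 CPM in HFD-C and 71.0 ± 65.3 CPM in HFD-50%, where the highest mouse had 199.6 CPM. Eif4ebp1, a repressor of cap-dependent initiation, had 49.98 ± 8.05 CPM in HFD-C and 105 ± 123 CPM in HFD-50%. For both, the SD within HFD-50% was wider than the difference between these means. Ddit4l, an inhibitor of mTORC1 signalling, had 241 ± 83.3 CPM in HFD-C and 158 ± 45.6 CPM in HFD-25%, and Lamtor1, of the lysosomal scaffold, had group means of 65.4 to 74.7 CPM.

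Of the 78 mitochondrial ribosomal protein genes, which serve the separate ribosome of mitochondria, 7 reached an unadjusted p of 0.05 or less in NFD-C against HFD-C, all lower, with a list median of -0.10 on the log2 scale. In the runner groups there were 1 in HFD-50%, 2 in HFD-75%, 1 in HFD-U and none in HFD-25%. The summed level was 2891 to 3398 CPM in NFD-C and 2924 to 3511 CPM in HFD-C mice 1 to 4, of the same high share. It was 3539 and 4411 CPM in HFD-C mice 5 and 6, so diet and library set are mixed in this comparison of diets. These genes were not counted within the high-share set. In HFD-50% against HFD-U their median was 0.03, and 0 of them reached an unadjusted p of 0.05 or less. Their summed level in HFD-50% mouse 4, at 3688 CPM, lay within the 2912 to 3967 CPM of its group. Mrpl42, Mrpl33 and Mrps21 were the most abundant per length, with group means of 188 to 204 CPM, 80.1 to 94.5 CPM and 92.3 to 101 CPM.

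Markers of other cells in the muscle were counted too. Fibroblast markers were lower than in HFD-C for 4 of 6 in HFD-75%, 3 in HFD-25%, 2 in HFD-50% and 1 in HFD-U, with summed levels of 200.2 to 570 CPM in the runners and 390 to 679 CPM in HFD-C. Endothelial markers were higher for 2 of 6 in HFD-25% and 1 in HFD-50%, with 117 to 454 CPM in runners and 125 to 240 CPM in HFD-C. Of 9 tested skeletal muscle markers, 1 was lower in HFD-50% at that limit. For blood, immune, Schwann and satellite cell markers at most 2 of a list differed from HFD-C at that limit in any group. Their part in the members' levels was not tested.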

How the data were processed

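RNA of 1 gastrocnemius muscle per mouse was sequenced as poly(A)-selected, paired-end libraries, 1 per mouse, 6 mice in each of 6 groups. The deposited values are raw counts per gene, which the authors made with HISAT2 2.0.5 and featureCounts 1.5.0-p3. How strand and reads with several matches were handled is not given in the sources used here. The features of the table carry GRCm39 positions, while the labels name an older build, so positions of genes are those of the table and start sequences are RefSeq's GRCm38.p6. Groups were taken from the sample labels.

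Counts were tested with edgeR 4.0.16 (R 4.3.3; quasi-likelihood F-test, TMM) over all genes whose mean count in the fitted libraries was 25 or more. Calls are given at an unadjusted p of 0.05, the limit the study used, and at the same limit after Benjamini-Hochberg adjustment over every gene of the fit. The 8 tests were 5 groups against HFD-C, HFD-50% against HFD-U, any difference among 6 groups, and a linear term of distance in 24 runners. Intervals are 95% intervals of the fitted log2 fold change. The ratio of Rpl3l to Rpl3 was compared with a two-sided exact permutation test over mice. The edgeR test was checked on simulated counts for HFD-U against HFD-C only. Genes were drawn independently there, without library sets or an effect of mouse number. The tests of 6 groups, of distance and of the ratio were not simulated. Libraries held 13060090 to 27981702 counts, with a median of 16710687.5. A p-value sets the difference between groups against the spread between their mice. In HFD-C that spread includes the difference between the high and low library sets.

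Alternatives were DESeq2 1.42.0, RLE size factors, no minimum count, the rRNA-linked share as covariate, 1 library set, the mouse number as a block and leaving out each mouse. The fits of mice 2 to 6, those without HFD-50% mouse 4 for the 6 groups, for distance and for the order of group means, and the alternatives for single members' fold changes were chosen after seeing the data. Same-numbered mice deviated together from their group means in all 6 pairs of HFD-U and HFD-C (r of 0.122 to 0.515, over genes), and in 1 to 5 of 6 pairs of the other comparisons (r above 0.1). The numbers come from sample names, and what they stand for is not stated. The main fits and ratio tests were therefore unpaired in all comparisons, also in HFD-U against HFD-C. The mouse number entered only as a block among the alternatives.

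Members were set by biotype and symbol alone, without use of a measured value. They and the gene lists were set with earlier results of these data known. Genes named are Rpl3l, Rpl3, the other paralogs and the stalk genes, the 3 highest and 3 lowest tested members per length, up to 3 members with the smallest p in each direction of a test, members past the adjusted p, and the 3 most abundant genes and those past the adjusted p of the other lists. Further members at an unadjusted p of at most 0.05, Rpl15, Rps9, Rps25, Ddit4l and Eif4ebp1 were named after their values were seen. The rRNA-linked features past the adjusted p were only counted.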

Additional observations from a re-analysis of the deposited data

Results flagged for a closer look

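Of 180 groups of 6 mice tested for a far value with Dixon's criterion, 14 held 1. Chance alone gives about 1 in 20 for independent groups. The members were not independent (median pairwise r of 0.76 over 36 mice), so that rate cannot be set against the 14. In HFD-50%, mouse 4 lay far above the other mice in 6 members, with 242 CPM of Rpl22 (others 105 to 146 CPM), 493 CPM of Rps4x (224 to 285 CPM), 489.98 CPM of Rps26 (177 to 288 CPM), 175 CPM of Rps12 (60.5 to 98.1 CPM), 247 CPM of Rpl21 (31.5 to 107 CPM) and 452 CPM of Rpl30 (67.7 to 156 CPM). HFD-50% mouse 3 had 123.5 CPM of Rps27rt (20.4 to 55.7 CPM in the others).

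In HFD-C, mouse 4 had 60.9 CPM of Rpl3 (others 32.6 to 41.8 CPM) and mouse 1 had 118 CPM of Rps27rt (21.7 to 53.4 CPM). In HFD-U, mouse 5 had 25.8 CPM of Rpl7l1 (31.5 to 32.3 CPM) and mouse 4 had 90.2 CPM of Rpl39 (52.7 to 65.9 CPM). In NFD-C, mouse 1 had 99.2 CPM of Rpl22 (129 to 140 CPM), mouse 5 had 12.5 CPM of Rpl37rt (9.43 to 10.4 CPM) and mouse 4 had 103 CPM of Rpl21 (46.5 to 62.4 CPM).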

How the results depend on the processing

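No called fold change and no called ratio changed sign under an alternative. Of the values of 35 fold changes (members at the limit and Rpl3l in each comparison) under alternatives, 532 stayed on their side of the unadjusted limit and 98 did not. Counts of members at an unadjusted p of at most 0.05 moved by over 1.5 times as follows, each with the percent of all genes in that fit. For HFD-25% against HFD-C (1) they were 21 with the rRNA-linked share as covariate (13.3%), 16 in 1 library set (11.6%), 3 with the replicate block (8.28%) and 4 in mice 2 to 6 (7.58%). For HFD-50% against HFD-C (1) they were 3 with no minimum count (11.1%) and 2 in mice 2 to 6 (11.02%). For HFD-75% against HFD-C (2) they were 4 with no minimum count (8.28%) and 1 with the covariate (8.42%). For HFD-U against HFD-C (9) they were 20 with the covariate (12.4%) and 19 in 1 library set (11.8%). For HFD-50% against HFD-U (10) they were 16 with no minimum count (10.9%), 2 with the covariate (4.58%), 30 with the replicate block (17.9%) and 16 in mice 2 to 6 (12.5%). For any of 6 groups (8) they were 5 with the covariate (12.4%), 17 with the replicate block (20.3%) and 4 without HFD-50% mouse 4 (11.1%). For distance (1) they were 3 with DESeq2 (7.66%), with no minimum count (10.2%) and with the replicate block (10.4%), 0 with the covariate (4.76%) and 2 in mice 2 to 6 (9.97%). Over all genes tested, DESeq2 and the replicate block put 2 and 4 members past the adjusted p for any of 6 groups, beside 445 and 527 of 12053 genes. Rpl3 and Rpl37rt were past it in both, and Rpl41 and Rpl6l in the block. The cause of these moves was not tested.

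Leaving out 1 mouse at a time gave 0 to 8 members for HFD-25%, 0 to 3 for HFD-50%, 0 to 3 for HFD-75%, 6 to 13 for HFD-U and 1 to 6 for NFD-C against HFD-C, and 5 to 26 for HFD-50% against HFD-U; the mice that moved a count are named beside it in the comparisons. The log2 ratio of Rpl3l to Rpl3 in NFD-C against HFD-C was 0.49 in 1 library set and 0.13 to 0.38 when 1 mouse was left out, with an exact permutation p of 0.039 without HFD-C mouse 6. In HFD-50% against HFD-U it was -0.60 to -0.32, with an exact permutation p of 0.0584 without HFD-50% mouse 4 and of 0.0628 to 0.0693 without HFD-U mouse 2, 3, 5 or 6. Rpl3l itself ranged from -0.26 to 0.20 (log2) over all settings. The 5 untested members had mean counts of at most 3.81, and differences in them were not detectable at this depth.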
